A study of Mus musculus with 9 samples.

Results

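The 9 proneural bHLH genes examined were Neurog1, Neurog2, Neurog3, Neurod1, Neurod2, Neurod4, Atoh1, Olig1 and Olig2, taken as a fixed list from 21900 protein-coding genes of the RefSeq annotation. m6A peaks at these genes were read from the peak lists of both m6A immunoprecipitations (m6A-RIP-seq) of wild-type mouse embryonic stem cells (mESCs). Of the 9 libraries of the study, the 2 wild-type immunoprecipitations were analysed, and the other 7 (Mettl3KO and Zc3h13KO immunoprecipitations and the inputs of the 3 genotypes) were not analysed here. The cells carry the background labelled Rosa26:CRE, Bir ligase, as do the knockout cells. They are 129xC57Bl/6 cells, grown on gelatin in serum with LIF-conditioned medium, and oligo-dT-selected mRNA was enriched with a rabbit anti-m6A antibody, with 30 ng going into each library. Every peak within 500 bp of a gene body was assigned to that gene, and its position, width, enrichment over input (a ratio of signals) and −log10 q were used as MACS2 had given them to the authors. Replicate 1 held 22531 peaks and replicate 2 held 5040. Depth is unknown, because the lists hold no read counts. Nothing in the labels says that these replicates are separate cultures. The peak names in the list of replicate 1 carry the sample name H4 and do not contain WT, whereas all 5040 names in the list of replicate 2 do. No source explains H4, and both lists were taken as wild-type from the sample labels. The labels list 1 wild-type input, although the protocol speaks of duplicate inputs, so both lists may share their control, and a likeness between them is then not fully independent.

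Proneural bHLH proteins are transcription factors that bind E-box DNA as dimers with ubiquitous E proteins and drive cells out of the progenitor state. Notch signalling holds them back through the Hes and Hey repressors, and Id proteins do so by sequestering E proteins. The neurogenins (Neurog genes) act early in neuronal and endocrine specification, and the NeuroD factors act after them in differentiation. Atoh1 specifies granule neurons of the cerebellum, hair cells of the inner ear and secretory cells of the gut, and the Olig factors act in the oligodendrocyte and motor neuron lineages. m6A is deposited on mRNA by the Mettl3/Mettl14 methyltransferase with its associated complex, and it often marks transcripts for faster turnover.

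Of the 9 genes, 4 had a peak in replicate 1, namely Neurog1, Neurog3, Neurod1 and Olig1. Neurog3 and Neurod1 had a peak in replicate 2 as well and were the 2 genes found in both lists. Neurog2, Neurod2, Neurod4, Atoh1 and Olig2 had none in either. The share with a peak in replicate 1 was 44.4%, against 41.3% of all protein-coding genes. In replicate 2 it was 22.2%, against 16.9%. For a peak in both replicates it was 22.2%, against 16.1%. Among the 6681 protein-coding genes with a body between 1674 and 12103 bp, the range of the 9 genes, 35.8% had a peak in replicate 1, 16.1% in replicate 2 and 15.3% in both. With 9 genes, a share moves in large steps, and these shares lay near their backgrounds. The genes differed from each other in whether they had a peak and in its strength and width. The peaks at the 9 genes numbered 7 in replicate 1 and 3 in replicate 2, all of them overlapped the gene body, and none lay within 500 bp of another annotated gene.

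**Figure D1:**
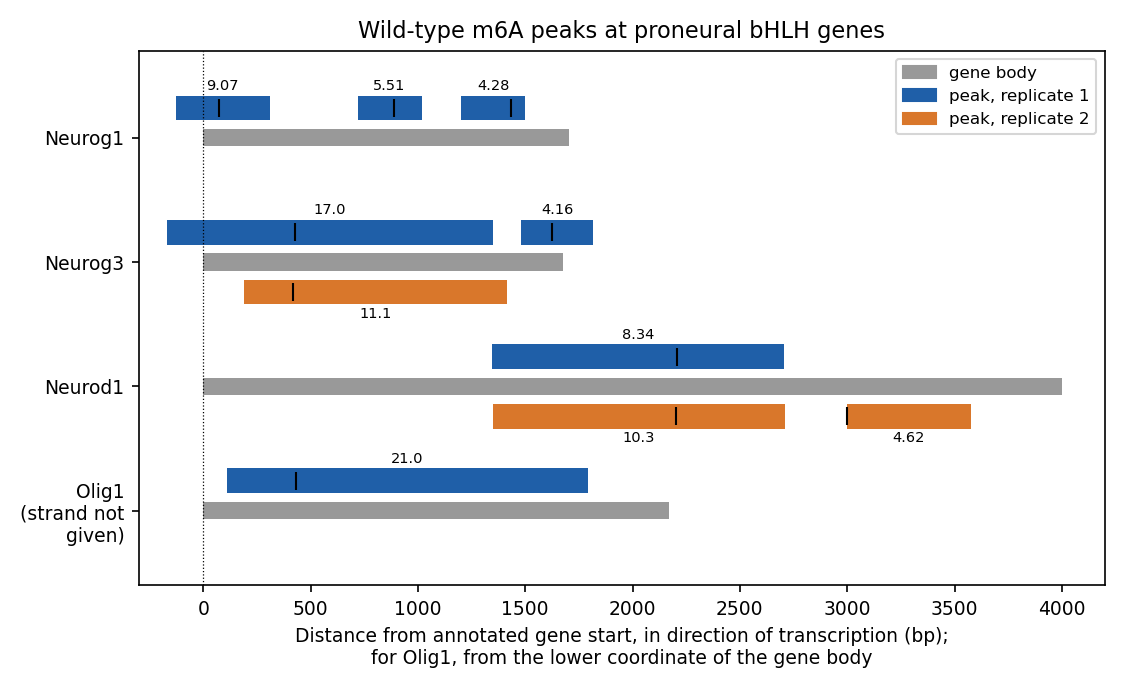
Peaks at the 4 proneural bHLH genes with any peak, by distance in bp from the annotated gene start in the direction of transcription (for Olig1, whose strand was not available, from the lower coordinate). Grey bars are gene bodies, blue bars peaks of replicate 1, orange bars peaks of replicate 2, black ticks summits, and the numbers give the fold enrichment; the main peaks of Neurog3 and Neurod1 overlap between replicates, while Neurog1 and Olig1 have peaks in replicate 1 only.

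Neurog3, which specifies the endocrine cells of the pancreas, had the neurogenin peak with the highest fold enrichment and −log10 q in both replicates. Its gene body (NCBI Gene 11925) lies on chromosome 10 of GRCm38 (mm10) from 62133090 to 62134763, on the plus strand. In replicate 1, a peak of 1518 bp ran from 62132922 to 62134439, enriched 17.0-fold at a −log10 q of 114. It was among the strongest and widest of that list, at rank 855 of 22531 by fold enrichment, and 4.83% of the peaks were as wide. In replicate 2, a peak of 1226 bp spanned 62133279 to 62134504, enriched 11.1-fold at a −log10 q of 15.0. The main peak was thus placed alike in both replicates. The 2 calls shared 1161 bp and their summits lay 9 bp apart, 427 bp and 418 bp downstream from the annotated start. In replicate 1 alone, a further peak of 338 bp from 62134570 to 62134907 covered the 3′ end of the gene and ran 144 bp past it, enriched 4.16-fold at a −log10 q of 27.2. Together the peaks covered 92.2% of the gene body in replicate 1 and 73.2% in replicate 2. Among protein-coding genes of 1674 to 12103 bp with a peak, the median coverage was 15.9% and 9.52%. At 1674 bp Neurog3 is at the short end of this range, and a peak of a given width covers more of a shorter gene. The medians are therefore not matched to its length. The peaks of Neurog3 spanned most of a short gene in both replicates.

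Neurog1, a determination factor of sensory neurons, had 3 peaks, in replicate 1 only. The gene (NCBI Gene 18014) lies on chromosome 13 from 56250478 to 56252180, on the minus strand. Its highest peak ran from 56251872 to 56252307, over the annotated start, enriched 9.07-fold at a −log10 q of 17.4. Another, from 56251164 to 56251461 in the middle of the gene, was enriched 5.51-fold at 7.17. The last, from 56250680 to 56250977 and nearest the 3′ end, was enriched 4.28-fold at 5.37. The 2 weaker peaks were 298 bp wide each, which is the narrowest width in that list, shared by 957 of its peaks. By −log10 q the 3 peaks ranked 15401, 21025 and 22011 of 22531, so all lay in the lower part of the list by that measure. By fold enrichment they ranked higher, at 4250, 10779 and 14374. Neurog2, which specifies neurons of the cortex and spinal cord, had no peak at its gene body on chromosome 3 from 127632733 to 127635636. The nearest to it lay 35097 bp away at Alpk1 in replicate 1, and 708818 bp away at Ank2 in replicate 2.

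The peaks of Neurog3 and Neurog1 in replicate 1 reached past the annotated start, by 168 bp and 127 bp. The replicate 2 peak of Neurog3 did not, and began 189 bp inside the gene. In the 1859 protein-coding genes of the same length range with a peak in replicate 1 and a known strand, 24.1% had a peak that reached past the start, and in replicate 2 this was 7.59% of 843. The stretches before the start that lie under these 2 peaks are shown because they are the parts of these peaks outside the gene body. They are taken from RefSeq promoter windows of GRCm38.p6, which run from 250 bases before to 50 bases after a start and exist for 8 of the 9 genes, Olig1 being the exception. Each is printed 5′ to 3′ in the direction of transcription and lies outside the annotated transcript. Capitals mark GGAC, the core of the usual m6A motif, and GTCC, which is the same letters on the opposite strand and cannot overlap it.
Neurog3, chr10:62132922-62133089, plus strand: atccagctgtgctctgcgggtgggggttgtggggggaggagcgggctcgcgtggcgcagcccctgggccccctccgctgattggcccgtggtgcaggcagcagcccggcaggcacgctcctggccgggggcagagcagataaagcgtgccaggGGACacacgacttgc
Neurog1, chr13:56252181-56252307, minus strand: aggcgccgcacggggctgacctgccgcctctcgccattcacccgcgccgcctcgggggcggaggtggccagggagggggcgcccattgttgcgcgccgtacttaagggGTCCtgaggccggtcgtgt

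The Neurog3 stretch holds GGAC 1 time on the transcript strand, and the Neurog1 stretch holds it 0 times on that strand and 1 time on the other. Their GC content is 72.0% and 74.0%. Of all 32851 windows of 300 bases, 65.6% hold GGAC on the transcript strand and 87.7% on either strand, so its presence in such windows is common. The Neurog3 and Neurog1 stretches are shorter, at 168 and 127 bases, and the shares were not computed for these lengths. Beyond the first 50 bases, no sequence of the gene bodies was used here, and the motif was not searched under the summits.

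Neurod1, which drives terminal differentiation of neurons and of endocrine cells and is a target of the neurogenins, had the peak of highest −log10 q among the 9 genes in both replicates. The gene (NCBI Gene 18012) lies on chromosome 2 from 79452637 to 79456636, on the minus strand. In replicate 1 the peak ran from 79453933 to 79455289, 1357 bp in width, enriched 8.34-fold at a −log10 q of 266. It ranked 40 of 22531 by −log10 q but 5140 by fold enrichment. In replicate 2 the matching peak ran from 79453928 to 79455285, enriched 10.3-fold at a −log10 q of 26.0, and ranked 100 of 5040 by −log10 q and 626 by fold enrichment. The edges of the peaks differed by 5 bp and 4 bp and their summits by 4 bp. Both summits lay near the middle of the gene body, 55.2% and 55.1% of its length from the start, and 1792 bp and 1796 bp from its end. For the peak of highest fold enrichment in genes of the same length range, the median position was 61.7% in replicate 1 (quartiles 21.5% and 85.8%). In replicate 2 it was 75.5% (quartiles 38.4% and 89.1%). These are positions in the genomic gene body, introns included, and positions in the mRNA were not examined. Replicate 2 alone held another peak in Neurod1, from 79453062 to 79453638 and 289 bp away from the main one, enriched 4.62-fold at a −log10 q of 2.48. Its summit sits on its last base, on the side of the main peak, and 96.9% of the list had as high a −log10 q.

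Neurod2, which acts in excitatory neurons of the cortex, and Neurod4, which acts in retinal and midbrain neurons, had no peak in either list. Neurod2 lies on chromosome 11 from 98325415 to 98329645 and Neurod4 on chromosome 10 from 130268152 to 130280254. The nearest to Neurod2 lay 46641 bp away at Stard3 in replicate 1 and 59523 bp away at Pgap3 in replicate 2. Around Neurod4, the longest of the 9 genes at 12103 bp, the next peak was 132198 bp away in replicate 1. Neurod1 was thus the 1 of these 3 NeuroD genes with a peak. Atoh1, on chromosome 6 from 64729125 to 64731245, had no peak closer than 253321 bp in replicate 1 or 2528985 bp in replicate 2.

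Olig1, a factor of oligodendrocyte maturation, had the highest fold enrichment of the 9 genes, in replicate 1 only. The gene (NCBI Gene 50914) lies on chromosome 16 from 91269769 to 91271939. Its peak ran from 91269881 to 91271560, 1680 bp in width, and covered 77.4% of the gene body. The fold enrichment was 21.0, which ranked 413 of 22531, and the −log10 q was 63.9, which ranked 5089. In replicate 2, the nearest peak lay 132233 bp away at Ifnar2. Olig2, which specifies motor neurons and oligodendrocytes and lies 41091 bp from Olig1 on the same chromosome (91225550 to 91228677), had no peak; the peak of Olig1 was the nearest to it in replicate 1. The strand of Olig1 was not in the promoter table, so the summit, 432 bp above the lower coordinate, could not be placed relative to the start.

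Fold enrichment and −log10 q ordered the 4 genes differently. In replicate 1 the order by the highest fold enrichment was Olig1, Neurog3, Neurog1 and Neurod1, at 21.0, 17.0, 9.07 and 8.34. By the highest −log10 q it was Neurod1, Neurog3, Olig1 and Neurog1. The median of the highest fold enrichment per gene was 13.0 over the 4 genes in replicate 1 and 10.7 over the 2 genes in replicate 2, beside 6.45 and 6.71 over all protein-coding genes with a peak. With 1 value per gene and list there is no error on a gene's fold enrichment, and the lists were not adjusted for depth, so values were ranked within a list only. Of the 414 peaks of replicate 1 whose fold enrichment was within 2% of that of Neurod1, 99.8% had a lower −log10 q, and their median was 30.8. For the highest Neurog1 peak there were 373 such peaks, of which 0 had a lower −log10 q, and the median was 37.9.

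**Figure D2:**
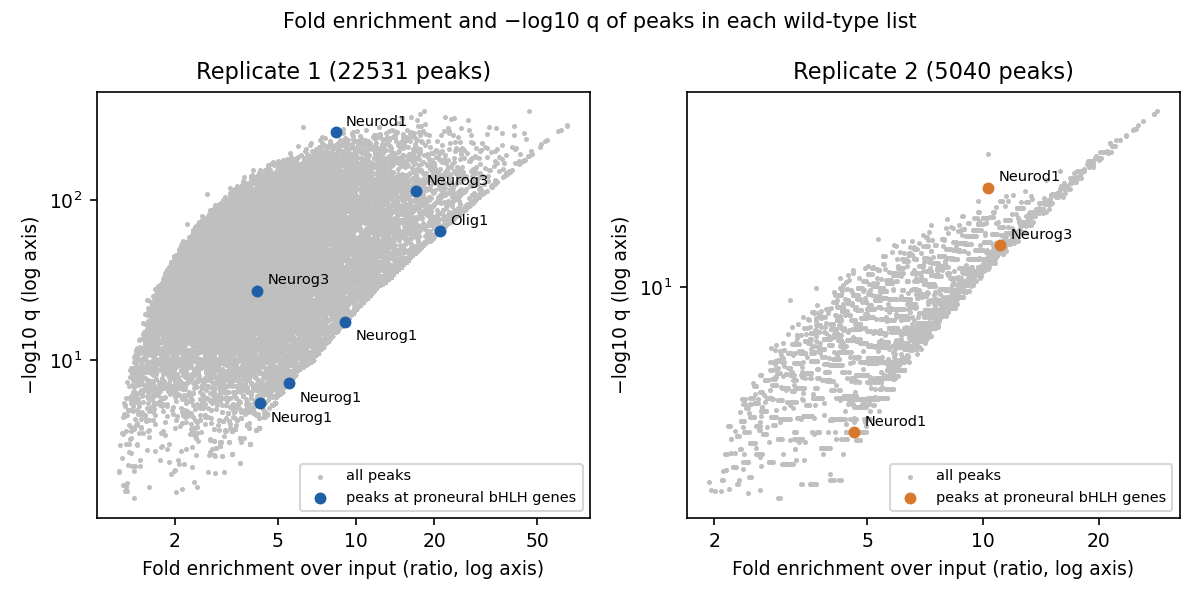
Fold enrichment over input and −log10 q, both on log axes, of every peak (grey) and of the peaks at proneural bHLH genes (coloured) in each wild-type list. The Neurod1 peak lies near the upper edge of replicate 1, and Olig1 and the Neurog1 peaks lie on or near the lower right edge of replicate 1.

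The lower right edge of the list of replicate 1 is a series of evenly spaced fold enrichments, a pattern examined after the values were seen. The 15 commonest pairs of fold enrichment and −log10 q lay on steps of 0.323 in fold enrichment, between 4.54 and 9.71, with some steps not among the 15. Extended over the list, 13.0% of its peaks had a fold enrichment within 0.002 of a step from this series. The peak of Olig1 and 2 of the 3 peaks of Neurog1 were among them, whereas the weakest Neurog1 peak and the peaks of Neurog3 and Neurod1 were not. The Neurog1 peak at 5.51-fold shared its exact pair of values with 166 other peaks, the highest with 52 and that of Olig1 with 5. MACS2 yields such a series where it divides by 1 genome-wide input value in place of a local one. Whether that was so at Olig1 and Neurog1 was not tested, since input reads were not used here. Of the peaks on the series 3.68% overlapped a peak of replicate 2, against 21.4% of the others, and their median −log10 q was 12.0 against 32.9. No even spacing was found among the 15 commonest pairs of replicate 2.

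Of the 4 genes with a peak in replicate 1, the 2 with the highest −log10 q there also had a peak in replicate 2. This is a description of 4 genes, and it did not hold for every gene. Hey1, at a −log10 q of 154 in replicate 1, had no peak in replicate 2, whereas Tal2, at 16.3, had one. The peak of Neurod1 ranked 40, and among the 290 peaks within 250 ranks of it 76.2% were shared with the other list (70.9% to 81.0%, a 95% exact binomial interval that covers counting error alone). Around the main peak of Neurog3 it was 51.7% (47.2% to 56.2%). Both of these peaks were found in replicate 2. Around Olig1 it was 30.9% (26.9% to 35.2%), and around the 3 peaks of Neurog1 it was 5.89%, 3.11% and 3.79%. None of these 4 peaks had a counterpart. The 3′ peak of Neurog3 ranked 11807, where the share was 10.4%, and had none either. Of the 3 peaks of replicate 2 at these genes, 2 overlapped a peak of replicate 1, and over that whole list 92.1% did. Replicate 2 held fewer peaks in all, so a gene without a peak there is one that was not called, and its methylation in that sample was not measured by any other value.

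**Figure D3:**
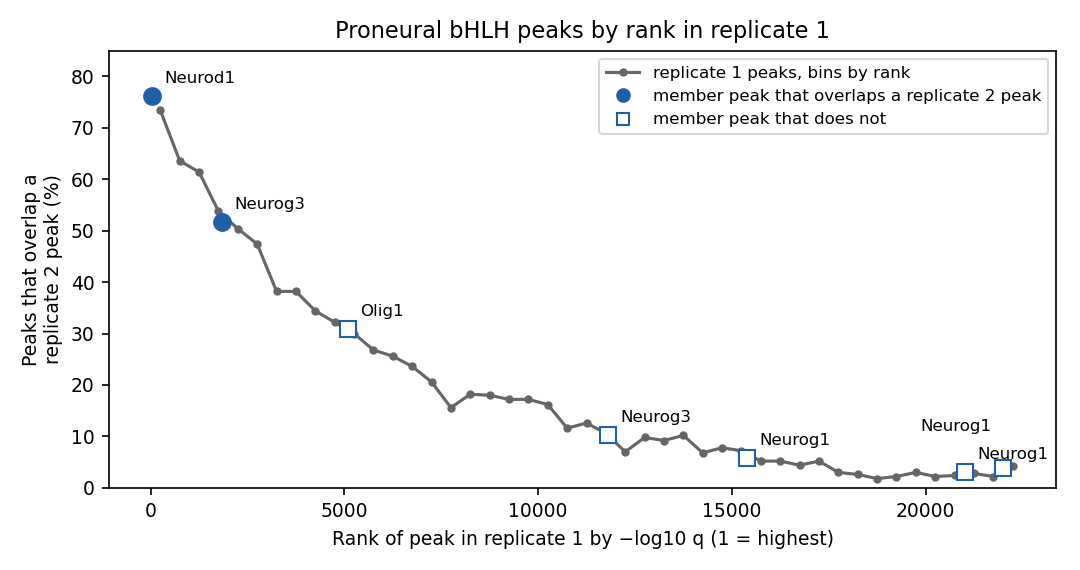
Share of peaks called in replicate 1 (percent) with an overlapping call in replicate 2, against the rank of the peak by −log10 q in replicate 1. The grey line gives bins of about 500 peaks, filled circles are peaks at proneural bHLH genes that overlap a replicate 2 peak and open squares those that do not, each at the share among the peaks within 250 ranks; Neurod1 and the main peak of Neurog3 lie at 76.2% and 51.7%, and the others at 30.9% or below.

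Related genes were described by counts, with lists chosen when earlier results of these data were known. Of 38 other tissue-restricted bHLH factors, 16 had a peak in replicate 1 (42.1%) and 5 in both (13.2%), close to the shares of all protein-coding genes. These 5 were Tal1, Tal2, Twist1, Tcf15 and Msc. Tal1, a hematopoietic factor, had the highest fold enrichment of this list, 37.1 in replicate 1 and 13.3 in replicate 2. Twist1, a mesodermal factor, had 8.60 and 7.19. The highest peaks of Tcf15 and Msc also lie at neighbouring genes, Gm31535 and Gm9947. Olig3, picked after its values were seen, was enriched 20.7-fold in replicate 1 only, at a −log10 q of 62.4, beside 21.0-fold and 63.9 for Olig1. Their fold enrichments differ by 0.323, which is 1 step of the series described above. Neurod6, a further NeuroD factor, had no peak in either list.

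Among the partners and regulators, Tcf3 was the 1 of 3 E proteins with a peak, in both replicates, at a fold enrichment of 2.73 and 2.65. Of 4 Id genes, Id2 had a peak in replicate 1 and 0 had one in both. Of 9 Hes and Hey repressors, 7 had a peak in replicate 1 (77.8%, against 41.3% of all protein-coding genes) and 1, Hes6, in both (11.1%). The highest fold enrichment per gene in replicate 1 ran from 2.53 for Hes6 to 17.2 for Hey1, with a median of 12.6. The highest peaks of Hes3, Hes7 and Hey2 also lie at other genes, Gpr153, 9130213A22Rik and Gm51763. Hes6, which is known to act against Hes1, had 3.54 in replicate 2. Of 9 Notch ligands and receptors, 7 had a peak in replicate 1 and 5 in both (55.6%, against 16.1% of all protein-coding genes), namely Dll1, Jag1, Jag2, Notch1 and Notch3. Dll1, the ligand that proneural factors induce, was enriched at most 13.3-fold and 6.10-fold in the 2 replicates, with 5 peaks in replicate 1 and 1 in replicate 2. For genes with several peaks, the highest values of the 2 replicates may come from different peaks. Bhlhe23 had the same highest value as Dll1 in replicate 1, 13.3. Whether the peaks of Bhlhe23, Dll1 and the Hes and Hey genes lie on the series described above was not examined. Notch1 had 4.87 and 5.95, at peaks that also lie at 0610009E02Rik. Of 14 proneural target genes, 8 had a peak in replicate 1 and 3 in both: Dll1, Hes6 and Insm1. This list is not separate from the others. Dll1 and Dll3 are also in the Notch list, Hes6 in the Hes and Hey list and Nhlh1 among the other bHLH factors. Dcx, Elavl3, Elavl4 and Tubb3 are also among the neuronal markers described below. Insm1, a zinc finger factor of endocrine and neuronal differentiation, had 11.1 and 13.95. These shares are descriptions of short lists and were not tested against the other genes. They were also not set beside genes of like length, as was done for the 9 proneural bHLH genes.

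**Figure D4:**
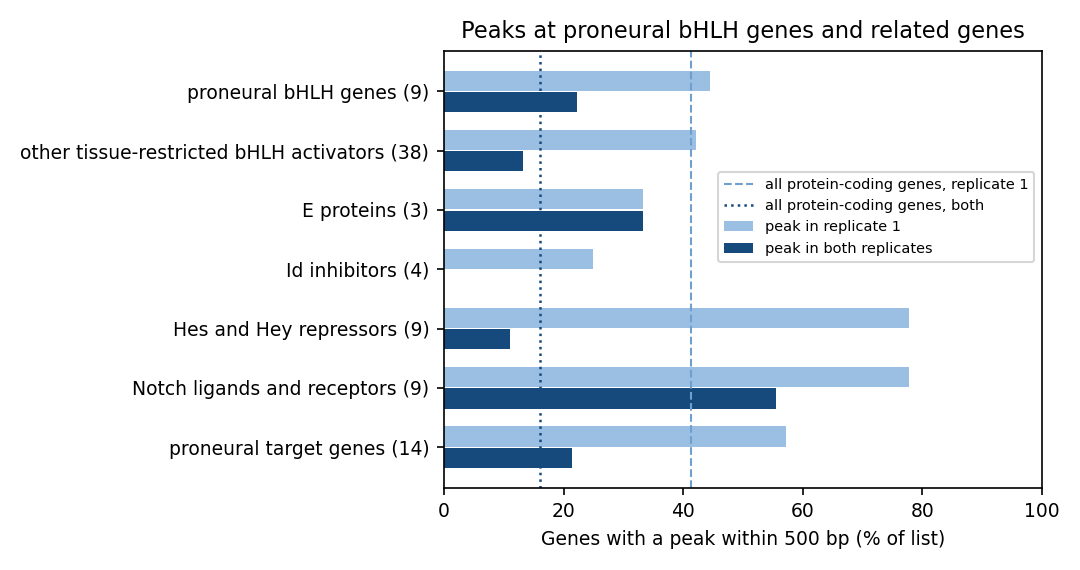
Percent of genes with a peak within 500 bp in replicate 1 (light bars) and in both replicates (dark bars), for the 9 proneural bHLH genes and 6 related lists, with the number of genes in brackets. The label activators names the list of other tissue-restricted bHLH factors, and how its genes act on transcription was not examined. Some genes belong to several of these lists, and the related lists were not matched for gene length. Dashed and dotted lines mark all protein-coding genes, 41.3% and 16.1%; the proneural bHLH genes lie near both lines, and Notch ligands and receptors at 77.8% and 55.6%.

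Markers of pluripotent cells, neural progenitors, neurons, the oligodendrocyte lineage and fibroblasts were read from the same lists. The samples are mESCs, and whether any of the other types was present was not tested. A transcript that is present but not methylated may give no peak, so a missing peak does not show that a marker is absent. Whether the listed peaks depend on methylation was not tested, since the Mettl3KO immunoprecipitations were not analysed here. Fewer cells of a type cannot be told apart from less RNA per cell. The counts are read beside 41.3% of all protein-coding genes with a peak in replicate 1 and 16.1% with a peak in both, and were not tested against them. Of 10 markers of pluripotent cells, 5 had a peak in replicate 1 and 0 in both. Nanog, Sox2, Klf4 and Zfp42 had a highest fold enrichment of 1.67, 1.27, 2.61 and 1.88, and Esrrb had 11.8; Pou5f1 had no peak. Of 8 neural progenitor markers, 5 had a peak in replicate 1, with fold enrichments of 6.05 to 10.6, and 1, Sox1, in both at 9.09 and 8.27, at peaks that also lie at Sox1ot. Of 8 neuronal markers, 3 had a peak in replicate 1, at 2.18 to 4.13, and 0 in both, and Dcx and Map2 had none. Of 6 markers of the oligodendrocyte lineage, 4 had a peak in replicate 1, with a highest fold enrichment of 13.3 for Sox10, 8.69 for Pdgfra, 17.5 for Cspg4 and 12.0 for Nkx2-2, and Mbp, a gene of mature oligodendrocytes, had none. Pdgfra alone had a peak in both, at 17.3 in replicate 2. Of 6 fibroblast markers, 2 had a peak in replicate 1, Thy1 at 3.04 and Pdgfrb at 8.15, and Pdgfrb in both, at 6.22 in replicate 2, and Col1a1 and Col1a2 had none. In replicate 1 the highest peaks of Sox2, Klf4 and Nkx2-2 also lie at Sox2ot, Gm12506 and Nkx2-2os. The highest −log10 q per gene in replicate 1 had a median of 35.9 for the pluripotent and 62.2 for the neural progenitor markers. It was 38.1 for the neuronal, 55.1 for the oligodendrocyte lineage and 38.8 for the fibroblast markers. Whether the peaks of the markers lie on the series of evenly spaced fold enrichments was not examined. The part of other cell types in the peaks at Neurog3, Neurod1 and Olig1 was not tested.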

How the data were processed

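m6A-RIP-seq peak lists of 2 wild-type mESC immunoprecipitations were used. The authors aligned reads to mm10 (Bowtie and SAMtools per the submitters' processing notes) and ran MACS2 with its defaults on each immunoprecipitation separately, with input as control. The deposited values are a fold enrichment over input (a ratio), −log10 of the p-value and q-value, a summit, and a score that was not used. The input paired with each replicate and the handling of duplicate reads are not given in the sources. Depth is unknown.

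Peaks were assigned to gene bodies of RefSeq GRCm38.p6 within 500 bp and called shared at 1 bp of overlap. Strand came from the promoter windows. The 9 genes, the related lists and the rule for naming list genes (those in both replicates) were chosen with earlier results of these data known. Other list genes were named after their values were seen. Some genes of the lists are not reported here by name. No test between groups was made, since 2 lists of 1 group were analysed. Assignment was checked on simulated data, with 0 differences from an exhaustive comparison. Alternatives were minimums of 5 for −log10 q and of 4 for fold enrichment, distances of 0 and 2000 bp, other overlaps, a shortened list and 1 replicate alone. Scripts ran in Python 3.11.15 with scipy 1.17.1, pandas 2.3.3, numpy 2.4.6 and, for figures, matplotlib 3.10.9.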

Additional observations from a re-analysis of the deposited data

How the results depend on the processing

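Of 35 alternatives, 32 left a count within 1.5 times of its reported value or a median within the spread between replicates. Some of these could not have changed a value: all peaks at these genes overlap the gene body, so a distance of 0 bp kept them all. With replicate 1 shortened to its 5040 peaks of highest −log10 q, whose lowest value was 64.35, the genes with a peak in replicate 1 fell from 4 to 2 and the peaks at them from 7 to 2. Neurog3 and Neurod1 were kept. The peak of Olig1, with a −log10 q of 63.9, fell just below that lowest value, and the 3 peaks of Neurog1 were lost. Fewer peaks are kept by construction. The genes with a peak in both replicates numbered 2 under every alternative that used both lists, and 2 to 4 with 1 replicate alone. At a −log10 q of at least 5 the smaller replicate 2 peak of Neurod1 was lost, a change from 3 to 2 peaks that was counted as within 1.5 times. Genes of the same length range were added as a background after seeing the data. No paired analysis was possible because both lists belong to 1 group. The limit that depth sets is unknown, since the lists hold no read counts.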
